A study of Mus musculus with 2 samples.

Results

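The genes described here are 10 parts of the TGF-β pathway in liver immune cells: the receptors Tgfbr1, Tgfbr2 and Tgfbr3, the ligand gene Tgfb1, the signal transducers Smad2, Smad3 and Smad4, and the inhibitors Smad7, Ski and Skil. They were chosen by name, with earlier results of these data known, since the TG mice carry a receptor meant to block this pathway. All 10 are among the 13528 genes of the filtered count table. CD45+ cells of mouse liver were captured singly on the BD Rhapsody system, where transcripts were counted as unique molecular identifiers (UMIs) beside 49 surface proteins bound by tagged antibodies. TG mice (dnTGFβRII) express a signalling-dead form of the human type II receptor of TGF-β from the mouse CD4 promoter. That promoter is used in T cell development and is not limited to CD4 T cells. WT mice do not carry the transgene, and all mice were C57BL/6. The labels give their age as 10 weeks and the methods a younger one.

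There was 1 capture library per genotype, and each pooled 2 genotypes. The TG cells shared a capture with cells of IFN-γ ARE-Del-/- mice, and the WT cells with cells of P40-/-IL-2Ra-/- mice. How many animals were pooled is not given in the sources used here. The cell table names 4647 TG cells with 18498477 UMIs and 7282 WT cells with 22216379 UMIs, in 14 cell types and 30 clusters. The median depth was 3298 UMIs in TG and 2653.5 in WT. With no replicate no test between genotypes was possible, and genotype and capture cannot be told apart. Levels are UMIs per 1000000 UMIs of the same cells (CPM). The range after each level and after each log2 ratio of TG over WT is a 95% interval that covers counting error only, not the spread between cells, mice or captures. The library files share 267 cell indices, of which 36 are among the named cells.

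Some names went against the data. The NK cells of clusters 3 and 11 in TG carried the T cell receptor component Cd3e at 1608 and 1401 CPM, against 122.3 and 129.6 CPM in the same clusters of WT. Over all cells named NK the 4 T cell markers summed to 2992 CPM in TG and 855.6 CPM in WT, with none at 0. Cluster 11 held 343 TG cells and 22 WT cells. In TG cells named macrophage the resident macrophage genes C1qa and Vsig4 were listed at 0 in the filtered table, where the TG library file holds 2 UMIs and 1 UMI in all named cells, and the macrophage markers summed to 40.8 CPM against 428.7 CPM in WT. NK and macrophage are therefore used below only as the names in the cell table. CD8αα T cells held Trdc, a constant region gene of the γδ T cell receptor, at 95.1 in TG and 854.5 CPM in WT, against 1393 CPM in γδ T cells of WT. The cells under that name thus differed between the genotypes, and the part of this in the CD8αα T cell ratios was not tested. A sign of doublets, 2 or more UMIs of T and also of B genes, was found in 280 TG cells and 248 WT cells, which were kept. The B cell markers Cd79a and Ms4a1 summed to between 61.7 and 120.3 CPM in the CD8αβ, CD8αα, CD4 and NKT cells of TG and to between 21.7 and 94.9 CPM in those of WT.

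TGF-β1 is secreted in a latent form, and once released it binds the type II receptor (Tgfbr2), which then recruits and phosphorylates the type I receptor kinase (Tgfbr1). Betaglycan (Tgfbr3) is a co-receptor that presents ligand. The type I receptor phosphorylates Smad2 and Smad3, which enter the nucleus with Smad4. Smad7 is induced by the signal and blocks the type I receptor, and the nuclear proteins Ski and SnoN (Skil) hold Smad complexes inactive. In lymphocytes the pathway restrains effector differentiation and supports regulatory T cells and tissue-resident cells.

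In the GRCm38 assembly Tgfbr2 is carried by the minus strand of chromosome 9, between 116084293 and 116175360, and Smad3 by the same strand, from 63646767 to 63757994. Tgfbr1 spans 47353222 to 47414931 of chromosome 4 (plus strand), Ski 155154075 to 155222592 of chromosome 4 (minus), Tgfbr3 107106570 to 107289629 of chromosome 5 (minus), Tgfb1 25687002 to 25705077 of chromosome 7 (plus) and Skil 31095058 to 31122577 of chromosome 3 (plus). All 10 genes are protein coding.

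RefSeq (GRCm38.p6) promoters were matched for 5 of the 10 genes, as 6 windows of the 250 bases before a start site. Those of the receptor on which the results turn and of the ligand are shown, 5′ to 3′ on the strand of the gene. The transgene is not under this Tgfbr2 promoter but under that of Cd4. Capitals mark CAGAC (or GTCTG), the core of the Smad binding element, in the Tgfbr2 window, and CCGCCC (or GGGCGG), the GC box bound by Sp1, in the Tgfb1 window. The Tgfbr2 window is chr9:116175364-116175613 on the minus strand and the Tgfb1 window chr7:25686752-25687001 on the plus strand.
Tgfbr2: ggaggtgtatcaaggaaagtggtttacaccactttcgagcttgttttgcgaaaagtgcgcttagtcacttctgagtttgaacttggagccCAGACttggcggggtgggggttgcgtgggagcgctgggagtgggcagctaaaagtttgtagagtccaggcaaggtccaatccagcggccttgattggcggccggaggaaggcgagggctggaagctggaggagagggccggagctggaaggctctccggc
Tgfb1: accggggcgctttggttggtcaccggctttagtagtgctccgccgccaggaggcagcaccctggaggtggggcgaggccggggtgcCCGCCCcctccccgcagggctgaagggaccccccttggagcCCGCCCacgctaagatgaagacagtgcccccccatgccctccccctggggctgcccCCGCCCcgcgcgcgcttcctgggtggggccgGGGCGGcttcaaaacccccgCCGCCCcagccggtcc
The Tgfbr2 window held 1 CAGAC, 160 bases before the start, and no GC box, and the Tgfb1 window held 5 GC boxes and no CAGAC. Over 32851 promoter windows of the same length 42.19% held CAGAC and 32.74% a GC box, on either strand, so both matches are common and are given as a description of the letters.

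Tgfbr2 was higher in T cells and in cells named NK of TG, and not in B cells or monocytes. In T cells it stood at 331.3 CPM (319.7 to 343.2) in TG and at 161.5 CPM (154.5 to 168.6) in WT, and in B cells at 191.0 and 210.2 CPM, a log2 ratio of -0.14 (-0.27 to -0.0049). The TG level was 411.2 CPM in NKT cells, 377.6 in CD4 T cells, 340.5 in CD8αα T cells and 295.9 in CD8αβ T cells. The WT level was 147.6, 221.4, 140.0 and 153.3 CPM in the same order. No interval of TG overlapped that of WT in any of these 4 types. The log2 ratio was 1.48 in NKT cells (1.34 to 1.62), 1.28 in CD8αα T cells (0.93 to 1.65), 0.95 in CD8αβ T cells (0.80 to 1.10) and 0.77 in CD4 T cells (0.56 to 0.98). Cells named NK held 362.3 in TG and 142.6 CPM in WT, a log2 ratio of 1.35 (1.13 to 1.56). The 17 γδ T cells of TG held 16 UMIs, or 257.1 CPM (147.0 to 417.6), which overlaps the 182.6 CPM (148.1 to 222.8) of WT.

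Mature B cells had Tgfbr2 at 217.9 in TG and 231.6 CPM in WT (-0.09, -0.23 to 0.06), immature B cells 117.0 and 134.7 CPM (-0.20, -0.55 to 0.15), monocytes 86.9 and 114.8 CPM (-0.40, -0.97 to 0.16) and cells named macrophage 88.2 and 67.9 CPM (0.38, -0.13 to 0.88). The intervals of these 4 log2 ratios all include 0. Plasmacytoid dendritic cells (pDC), which use the CD4 gene too, numbered 46 in TG, under the minimum of 50 set for ratios. They had 196.0 CPM (147.6 to 255.1) in TG and 98.1 CPM (80.1 to 119.0) in WT, intervals that do not overlap.

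**Figure D1:**
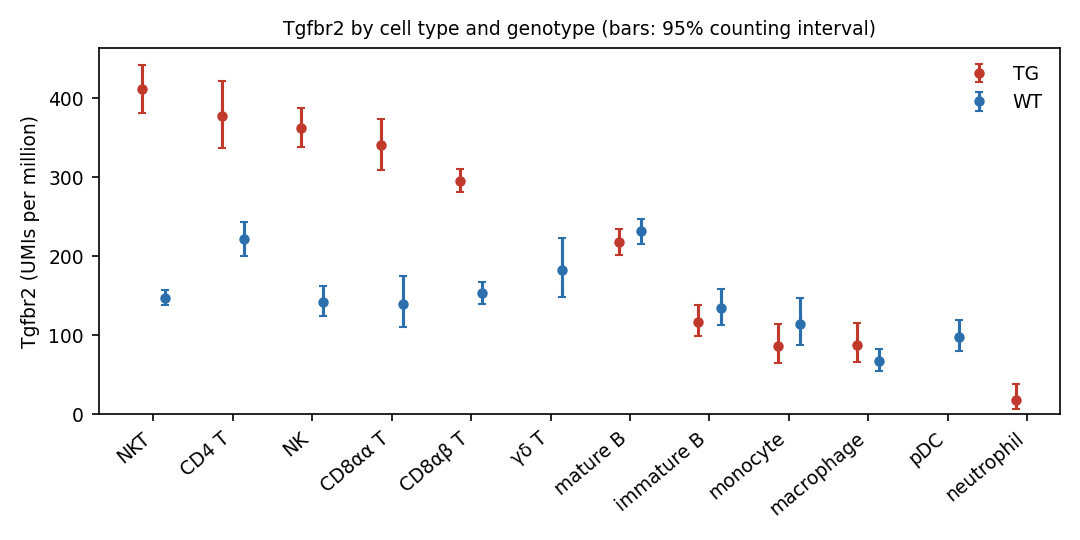
Tgfbr2 level in CPM (y axis) by cell type (x axis) in TG (red) and WT (blue), points with 95% counting intervals, for each profile of at least 50 cells. In NKT, CD4 T, NK, CD8αα T and CD8αβ T cells TG lies above WT with no overlap, from 295.9 to 411.2 in TG, and in B cells, monocytes and macrophages the intervals overlap.

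The order of the cell types also differed. In WT the level went down in small steps from mature B cells (231.6 CPM) through CD4 T cells to cells named macrophage (67.9 CPM), a 3.41-fold range in which no neighbours had intervals apart. In TG the order began with NKT, CD4 T, NK, CD8αα T and CD8αβ T cells, whose neighbours overlapped. Below them CD8αβ T cells were apart from mature B cells, mature from immature B cells, and monocytes from neutrophils (17.8 CPM (6.54 to 38.8)).

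The T cell clusters were not uniform. Of 14 clusters with at least 50 cells in both genotypes, the interval of the Tgfbr2 ratio lay above 0 in 9 and below 0 in 1, mature B cluster 1 (211.4 and 244.3 CPM, -0.21, -0.36 to -0.05). The ratio was highest in NK cluster 8, at 378.6 in TG and 122.6 CPM in WT (1.63, 1.26 to 2.00), where the T cell markers were low in both genotypes (444.0 and 303.1 CPM). Next came NKT cluster 0 (1.47) and CD8αβ T cluster 7 (1.46). CD8αβ T cluster 4 stood apart from the other CD8αβ T clusters with a ratio. It had 181.4 in TG and 184.0 CPM in WT, a log2 ratio of -0.02 (-0.35 to 0.31). Its interval overlaps neither that of cluster 7 (1.16 to 1.77) nor those of clusters 12 (0.79 to 1.82) and 13 (0.50 to 1.29). CD4 T cluster 6 was at 286.7 and 235.3 CPM (0.29, -0.19 to 0.73) and CD4 T cluster 9 at 344.9 and 231.4 CPM (0.58, 0.26 to 0.89), with overlapping intervals.

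Clusters 4 and 6 had the most Ccr7, a lymph node homing receptor gene, and the most Lef1, a transcription factor gene of naive T cells, among the T cell clusters with a ratio for both genes. Ccr7 stood at 203.6 and 258.4 CPM (TG and WT) in cluster 4 and at 149.1 and 268.3 CPM in cluster 6, against 4.49 and 4.68 CPM in cluster 0. Lef1 stood at 400.3 and 588.3 CPM in cluster 4 and at 556.2 and 793.9 CPM in cluster 6. Both genes were picked for this description after their values were seen. Cluster 13, with Ccr7 at 138.3 and 101.3 CPM, nevertheless had Tgfbr2 at 271.4 and 146.8 CPM. CD4 T cluster 21, the cluster rich in Foxp3, the regulator of regulatory T cells (921.9 and 952.4 CPM in the library files), was far apart between genotypes. Its 48 TG cells had 538.6 CPM (440.5 to 652.0) of Tgfbr2 and its 65 WT cells 117.3 CPM (75.2 to 174.6).

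**Figure D2:**
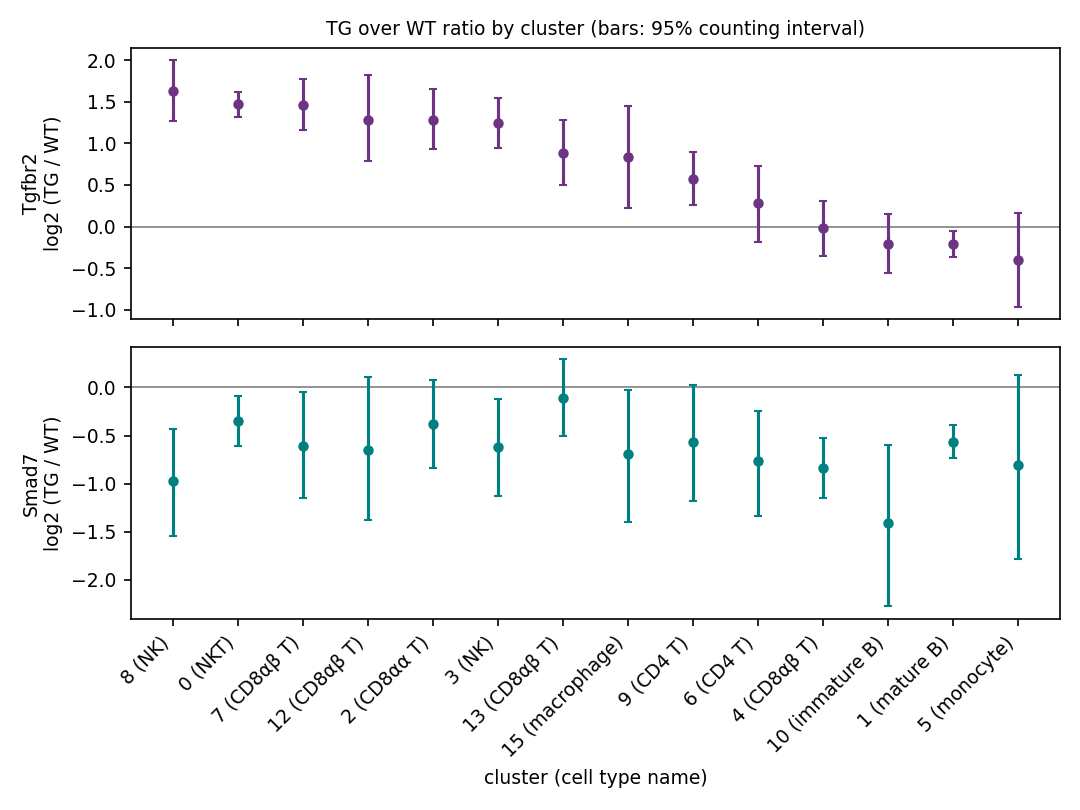
Log2 TG over WT ratio (y axis) of Tgfbr2 (top) and Smad7 (bottom) in 14 clusters ordered by the Tgfbr2 ratio (x axis, with cell type names), with 95% counting intervals and a line at 0. Tgfbr2 runs from 1.63 in cluster 8 to -0.40 in cluster 5, and Smad7 is below 0 in all 14 clusters.

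The share of cells with a Tgfbr2 transcript differed in the same way, also at equal depth. A UMI was found in 67.4% of TG T cells (65.4 to 69.4) and 36.0% of WT T cells (34.6 to 37.5), at a median of 3726 and 2777 UMIs per cell. With every cell thinned to 1000 UMIs, which left out 0 cells, the shares were 27.9% (26.0 to 29.9) and 15.0% (13.9 to 16.1). Cells named NK had thinned shares of 31.2% and 13.5%, B cells 18.1% and 18.9%, and monocytes 5.39% and 7.75%. No type here is known to lack the gene. TG neutrophils, the lowest type by level, gave 3.70% over 54 cells (0.452 to 12.7), at a median of 6038.5 UMIs before thinning, below the share of T cells in either genotype.

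Named and unnamed cells were also compared inside each capture. Cells of each library file were gated by transcripts alone, with T cells as at least 2 UMIs of Cd3d, Cd3e and Cd3g, and cells without a genotype name (5379 in the TG and 16829 in the WT library), which stand for no genotype, were set beside the named ones. In the TG library the named T cells with Cd8b1 held 288.1 CPM of Tgfbr2 (270.4 to 306.7) and the unnamed ones 152.7 CPM (141.4 to 164.7), near the 162.7 and 147.5 CPM of named and unnamed cells of the WT library. For the other T cells these 4 values were 364.6, 166.3, 162.7, 184.3 CPM. In cells with Ncr1, an NK receptor gene, and no CD3 UMI they were 379.9, 126.2, 110.9, 95.4 CPM. Cd4 also differed in that gate, with 115.8, 37.3, 11.1, 8.23 CPM in the same order. In B cells the Tgfbr2 values were 178.0, 173.8, 214.7, 195.3 CPM. The log2 ratio of named over unnamed cells in the TG library was 0.92 (0.77 to 1.06), 1.13 (1.03 to 1.23), 1.59 (1.16 to 2.04) and 0.04 (-0.13 to 0.20) in these 4 gates. The gates did not match cells for state. Named and unnamed Cd8b1 T cells of that library also differed in Ifng (136.9 and 271.8 CPM), and what sets them apart was not tested.

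**Figure D3:**
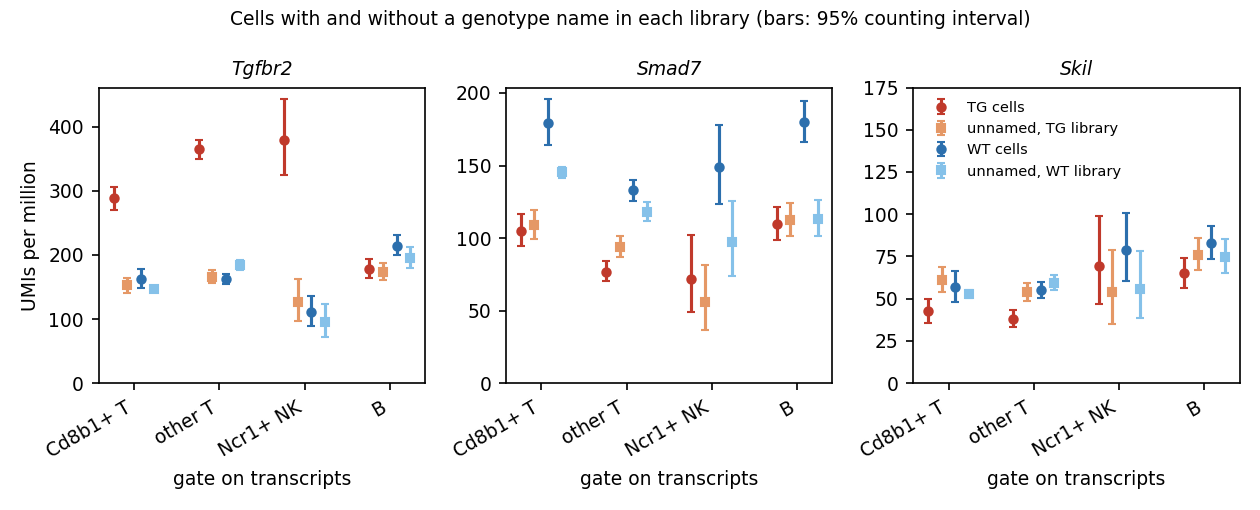
Levels of Tgfbr2, Smad7 and Skil in CPM (y axes) in 4 transcript gates (x axes), for named cells (circles) and unnamed cells (squares) of the TG library (red, orange) and the WT library (blue, light blue), with 95% counting intervals. For Tgfbr2 the named TG cells stand alone in the T and NK gates and not in B cells, whereas for Smad7 the intervals of named and unnamed cells of the TG library overlap in the Cd8b1, NK and B gates.

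Whether reads of the human transgene were counted under mouse Tgfbr2 was not tested, and transcripts of the transgene and of the mouse gene cannot be told apart in these counts. Cd4, whose promoter drives the transgene, also differed in many of these cells. In cells named NK it was at 311.5 in TG and 17.4 CPM in WT (4.16, 3.62 to 4.76), in CD8αα T cells at 113.2 and 10.9 CPM (3.38), in NKT cells at 633.8 and 162.2 CPM (1.97) and in CD8αβ T cells at 186.3 and 92.0 CPM (1.02). B cells, which should lack it, held 22.5 and 33.4 CPM, so the TG values of these types were above that background. The CD4 antibody gave medians (natural-log centred ratio) of 1.53 in TG and 0.58 in WT on cells named NK, and of 1.62 and 0.567 on CD8αα T cells. On B cells it gave 0.806 and 0.356, while CD4 made up 0.44% and 0.559% of their antibody counts. On cells named NK that share was 3.33% and 0.88%.

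Tgfbr2 and Cd4 did not always go together. In cluster 4, where Tgfbr2 was alike, Cd4 was at 38.8 in TG and 14.3 CPM in WT (1.44, 0.49 to 2.45). Both values lie near the background level of B cells given above, so this ratio says little about Cd4. In cluster 12, where Tgfbr2 stood at 409.8 and 168.5 CPM, Cd4 was at 291.3 and 218.5 CPM (0.41, -0.04 to 0.90). Over the 14 clusters the Tgfbr2 ratio had a Pearson r of 0.67 with the Cd4 ratio and of 0.18 with the Cd4 level of WT, values that describe clusters of the same 2 libraries. In macrophage cluster 15 the Tgfbr2 ratio was 0.83 (0.22 to 1.45), with Cd4 at 74.6 and 36.8 CPM. The 4 T cell markers summed there to 653.4 CPM in TG and 316.3 CPM in WT, with none at 0, and the part of such cells in the ratio was not tested.

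Over T cells 1 of the 10 genes (Tgfbr2) was past 1.5-fold higher and 2 (Tgfbr3 and Smad7) were past 1.5-fold lower in TG, beside 12.9% of 11625 genes higher and 8.42% lower. The median log2 ratio of the 10 was 0.01, as over all genes. In B cells 9 of the 10 had at least 20 UMIs, of which 0 were higher and 1 (Smad7) was lower, beside 6.22% and 7.57% of 10304 genes, with a median of -0.17 against -0.04. By cell type the counts were 3 higher and 2 lower of 10 in CD8αβ T cells (11.4% and 8.23% of all genes), 2 and 3 of 10 in CD4 T cells (16.3% and 9.81%), 1 and 3 of 9 in cells named NK (9.74% and 11.6%), 1 and 0 of 9 in both NKT cells (10.2% and 7.69%) and CD8αα T cells (14.1% and 9.09%), 0 and 3 of 9 in monocytes (12.8% and 16.2%), and 1 and 0 of 10 in cells named macrophage (15.2% and 11.4%). Mature B cells had 0 and 0 of 9 (6.05% and 8.07%), and immature B cells 0 and 2 of 9 (9.87% and 10.7%).

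**Figure D4:**
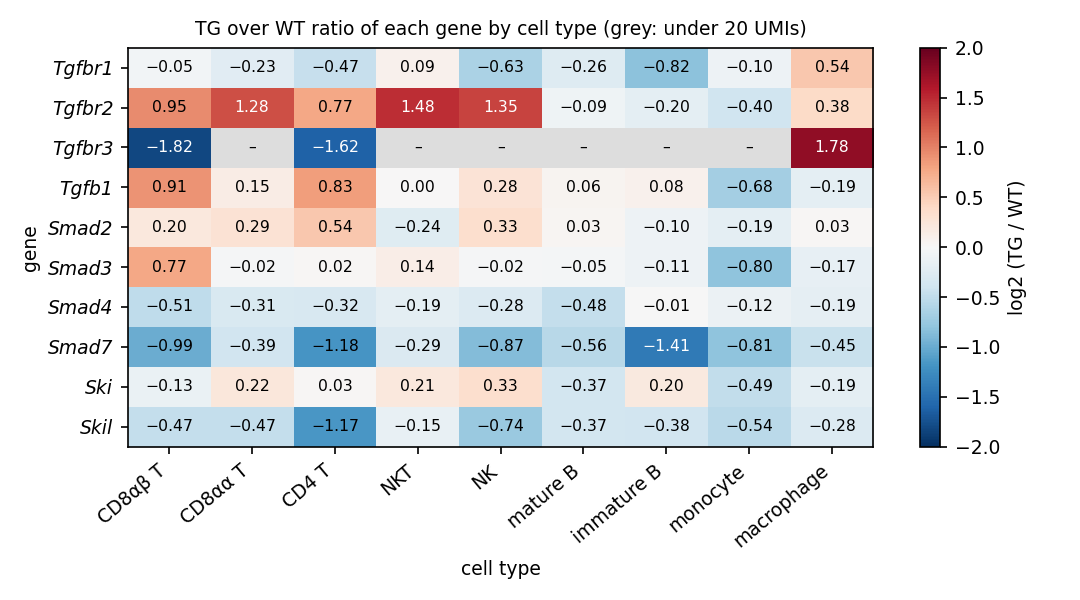
Log2 TG over WT ratio (colour and number) of the 10 genes (rows) in 9 cell types (columns) with at least 50 cells in both genotypes, grey where both genotypes together held under 20 UMIs. Tgfbr2 is between 0.77 and 1.48 in the T and NK types, and Smad4, Smad7 and Skil are below 0 in all 9.

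Tgfbr1, the signalling kinase of the receptor, was sparse and was alike in T cells of both genotypes, at 23.5 and 22.3 CPM (0.08, -0.18 to 0.34). CD8αα T cells held the most among T cells, 58.9 CPM (46.5 to 73.5) in TG and 69.1 CPM (48.9 to 94.8) in WT, while CD8αβ T cells held 16.4 and 17.0 CPM. In WT the highest level was that of pDC, 122.9 CPM (102.6 to 146.0), apart from CD8αα T cells, which were in turn apart from cells named NK (37.4 CPM (28.5 to 48.1)). The range from pDC to CD8αβ T cells was 7.24-fold. Among cell types the ratio interval was clear of 0 for cells named NK alone, with 24.1 in TG and 37.4 CPM in WT (-0.63, -1.19 to -0.08), and among clusters for NK cluster 3 alone (31.7 and 55.2 CPM, -0.80, -1.56 to -0.07). The TG cells of cluster 3 are those with 1608 CPM of Cd3e, and the part of that in this ratio was not tested.

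Tgfbr3 was lower in T cells of TG and was highest in CD4 T cells in WT. It was rare, with 94 UMIs in TG and 236 in WT over all cells. In T cells it was at 5.48 CPM in TG (51 UMIs) and 15.7 CPM in WT (199 UMIs), a log2 ratio of -1.51 (-1.99 to -1.06). CD4 T cells held the most in WT, 61.6 CPM (51.1 to 73.7), apart from the next, γδ T cells at 28.2 CPM (15.8 to 46.6). In TG they held 20.1 CPM (11.7 to 32.2), a log2 ratio of -1.62 (-2.44 to -0.88). The makeup of the CD4 T cells differed, since cluster 6, where Tgfbr3 was densest, was 58 of 238 TG cells and 397 of 734 WT cells. Within cluster 6 it was at 63.1 and 99.1 CPM (-0.65, -1.70 to 0.25) and in cluster 9 at 12.6 and 28.3 CPM (-1.16, -2.76 to 0.19), so neither interval was clear of 0. In CD8αβ T cluster 4 it was at 8.31 CPM (6 UMIs) and 38.1 CPM (40 UMIs), a log2 ratio of -2.20 (-3.73 to -0.95). In the TG library Cd8b1 T cells held 7.0 CPM when named and 9.33 CPM when unnamed (-0.41, -1.20 to 0.35). In the WT library these levels were 19.3 and 6.82 CPM. Other T cells held 4.22 and 10.2 CPM in the TG library (-1.28, -1.96 to -0.63) and 12.7 and 20.4 CPM in the WT library. The TG over WT ratio in T cells depended on how cells were weighted. It was -0.26 with equal weight per cluster and -0.22 with equal weight per cell type. Cells named macrophage went the other way, with 29.4 CPM in TG (18 UMIs) and 8.57 CPM in WT (12 UMIs), a log2 ratio of 1.78 (0.64 to 2.96), in a class whose TG cells are listed at 0 for C1qa and Vsig4. The class held 89, 20 and 0 TG cells and 158, 80 and 23 WT cells of clusters 15, 22 and 27, and all 18 TG UMIs lay in cluster 15, at 40.7 and 14.7 CPM (1.47, 0.28 to 2.75).

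Tgfb1, the ligand, varied 3.05-fold over the cell types of WT and was higher in TG in some T cells. Over T cells it was at 45.7 and 37.1 CPM (0.30, 0.11 to 0.49). CD8αβ T cells, the lowest type of WT, held 43.4 CPM (38.0 to 49.4) in TG and 23.2 CPM (18.1 to 29.2) in WT, a log2 ratio of 0.91 (0.52 to 1.31). Their cluster 7, with 106 of the 230 TG UMIs, was at 43.8 and 40.5 CPM (0.11, -0.43 to 0.69), and the intervals of clusters 12 (-0.14 to 3.30) and 13 (-0.38 to 1.86) included 0 too. Cluster 4 was 145 of the 1020 TG cells and 363 of the 819 WT cells. CD4 T cells held 63.9 and 36.0 CPM (0.83, 0.29 to 1.36), and within them cluster 9 was at 73.6 and 35.0 CPM (1.07, 0.30 to 1.86) and cluster 6 at 34.4 and 35.0 CPM (-0.03, -1.57 to 1.24). NKT cells were at 43.0 and 43.0 CPM (0.00, -0.38 to 0.37). Of all clusters the ratio was largest in cluster 4, with 49.9 CPM in TG (36 UMIs) and 13.3 CPM in WT (14 UMIs) (1.901, 0.98 to 2.91), but 3 of the TG cells held 33.3% of the UMIs. B cells were at 61.1 and 59.7 CPM (0.03, -0.21 to 0.28) and monocytes at 41.8 and 67.0 CPM (-0.68, -1.48 to 0.10). Inside the TG library Tgfb1 was at 45.7 CPM in named and 41.7 CPM in unnamed Cd8b1 T cells, against 25.3 and 25.4 CPM in the WT library. In the B cell gate these 4 values were 60.5, 61.7, 66.9, 52.2 CPM.

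Smad2 and Smad3, the transducers phosphorylated by the receptor, had different patterns. Smad2 was even: in WT it ran from 46.4 CPM in cells named macrophage to 28.7 CPM in monocytes, a 1.62-fold range with no neighbours apart. Its T cell levels were 44.6 and 39.8 CPM (0.17, -0.02 to 0.36), and over 9 cell types the log2 ratios ran from -0.24 to 0.54. Smad3 ran from 148.8 CPM in cells named NK to 14.3 CPM in pDC in WT, or 10.4-fold, with CD4 T cells apart from macrophages. Cells named NK held 147.2 and 148.8 CPM of Smad3 (-0.02, -0.26 to 0.23) and CD8αα T cells 109.5 and 110.9 CPM (-0.02, -0.46 to 0.44), so neither differed beyond counting error. CD8αβ T cells held 96.0 in TG and 56.4 CPM in WT (0.77, 0.51 to 1.02). Cluster 4 was at 81.7 CPM in TG (59 UMIs) and 25.7 CPM in WT (27 UMIs), a log2 ratio of 1.67 (0.99 to 2.38). Clusters 13 (93.9 and 60.0 CPM, 0.65, 0.03 to 1.30), 12 (144.3 and 104.7 CPM, 0.46, -0.20 to 1.18) and 7 (86.8 and 72.5 CPM, 0.26, -0.14 to 0.68) had smaller ratios. Cluster 4 was 145 of the 1020 TG and 363 of the 819 WT CD8αβ T cells. In the TG library named Cd8b1 T cells held 99.1 CPM and unnamed ones 74.7 CPM (0.41, 0.18 to 0.63). In the WT library these levels were 56.4 and 61.8 CPM. Cluster 21 lay the other way, with 25.6 CPM (8.33 to 59.8) in its 48 TG cells and 112.4 CPM (71.3 to 168.7) in its 65 WT cells.

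Smad4, the common partner of Smad2 and Smad3, was slightly lower in TG in most cells. Like Smad2 and Smad7 it lies on chromosome 18. In T cells it was at 86.5 and 111.7 CPM (-0.37, -0.50 to -0.24) and in B cells at 64.2 and 85.5 CPM (-0.41, -0.64 to -0.19). The ratio was below 0 in all 9 cell types and in 13 of 14 clusters, but its interval was below 0 in 3 clusters alone. It was lowest in cluster 4, with 95.6 in TG and 163.0 CPM in WT (-0.77, -1.20 to -0.36). Immature B cells held 55.7 and 56.0 CPM (-0.01, -0.54 to 0.52).

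Smad7, the feedback inhibitor, was lower in TG across lineages. In T cells it was at 89.6 CPM in TG (833 UMIs) and 146.3 CPM in WT (1858 UMIs), a log2 ratio of -0.71 (-0.83 to -0.59). In B cells it was at 116.6 and 184.8 CPM (-0.67, -0.82 to -0.51). The ratio was below 0 in all 14 clusters, with the interval below 0 in 9. CD4 T cells had 95.9 in TG and 217.3 CPM in WT (-1.18, -1.54 to -0.83), CD8αβ T cells 85.4 and 170.0 CPM (-0.99, -1.18 to -0.81) and cells named NK 68.4 and 124.5 CPM (-0.87, -1.18 to -0.56). NKT cells, with the largest Tgfbr2 ratio of the cell types, had the Smad7 ratio nearest 0, at 98.6 and 120.2 CPM (-0.29, -0.53 to -0.05). In thinned cells 9.39% of TG and 13.8% of WT T cells held a UMI.

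The Smad7 level also varied between the clusters of a cell type. It was highest in the T cell clusters with Ccr7, at 167.6 in TG and 298.4 CPM in WT in cluster 4 and 183.5 and 312.4 CPM in cluster 6. Among the CD8αβ T clusters with a ratio it was lowest in cluster 7 (32.2 and 49.0 CPM). Within these types the cluster ratios were nearer 0 than those of the whole type. In CD8αβ T cells they were -0.83, -0.60, -0.65 and -0.11 in clusters 4, 7, 12 and 13, and the intervals of clusters 12 (-1.38 to 0.11) and 13 (-0.51 to 0.29) included 0. In CD4 T cells they were -0.77 in cluster 6 and -0.57 (-1.18 to 0.02) in cluster 9. Makeup differed between the genotypes, since cluster 4 was 145 of 1020 TG and 363 of 819 WT CD8αβ T cells, and cluster 6 was 58 of 238 TG and 397 of 734 WT CD4 T cells. With equal weight per cluster the T cell ratio was -0.53, short of 1.5-fold. Inside the captures Smad7 was unlike Tgfbr2. In the TG library it was at 104.9 CPM in named and 109.3 CPM in unnamed Cd8b1 T cells. In the B cell gate of that library it was at 109.4 and 112.4 CPM. The intervals of named and unnamed cells overlapped in both gates. In the WT library Cd8b1 T cells held 179.4 CPM with the WT name and 145.4 CPM without it, both above the TG library. The NK gate had 71.8 and 55.9 CPM in the TG library and 149.1 and 97.1 CPM in the WT library. In the WT library B cells held 179.9 CPM with the WT name and 113.2 CPM without it (0.67, 0.47 to 0.87). Among other T cells of the TG library the named ones were lower, at 76.9 against 93.7 CPM (-0.28, -0.45 to -0.12). Whether the lower Smad7 goes with the TG genotype or with the capture cannot be told apart.

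Ski and Skil encode related co-repressors and behaved differently. Ski was at 101.9 and 106.4 CPM in T cells (-0.06, -0.18 to 0.06), with CD4 T cells highest among T cells in both genotypes (165.7 and 162.8 CPM). Its cluster ratios pointed both ways, from 1.10 in cluster 12 (126.6 and 59.2 CPM, 0.25 to 2.06) to -0.85 in cluster 4 (65.1 and 117.3 CPM, -1.37 to -0.35). Skil was lower in TG, at 38.1 and 53.9 CPM in T cells (-0.50, -0.69 to -0.32) and 60.2 and 80.5 CPM in B cells (-0.42, -0.65 to -0.19). Its ratio was below 0 in all 9 cell types and in 13 of 14 clusters, cluster 12 excepted, with the interval below 0 in 4. In CD4 T cells it was at 33.1 and 74.5 CPM (-1.17, -1.81 to -0.58), and in their cluster 9 at 18.9 CPM (9 UMIs) and 59.2 CPM (44 UMIs) (-1.64, -2.87 to -0.59). Within the TG library named T cells were also below unnamed ones, at 42.5 and 61.0 CPM with Cd8b1 (-0.52, -0.82 to -0.22) and at 38.1 and 53.9 CPM without it (-0.50, -0.73 to -0.27). In the other gates of that library the interval included 0, at 69.5 and 53.8 CPM in the NK gate (0.37, -0.44 to 1.18) and 65.0 and 76.0 CPM in B cells (-0.23, -0.49 to 0.04). In WT Skil was highest in pDC (125.7 CPM), cells named macrophage (112.9 CPM) and monocytes (107.2 CPM), whose intervals overlapped.

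In CD8αβ T cluster 4, where Tgfbr2 was not past 1.5-fold, 6 of the 10 genes were. Tgfb1 and Smad3 were higher, beside 11% of 7265 genes, and Tgfbr3, Smad4, Smad7 and Ski were lower, beside 13.9%. It had 145 TG cells and 363 WT cells, at a median of 4961 and 2764 UMIs per cell. The TG cells also had less Ccr7 (-0.34, -0.64 to -0.05) and Lef1 (-0.56, -0.76 to -0.35), and the part of such a difference in cell state was not tested. CD8αβ T cluster 12 had as many, with 8 of the 10 genes at 20 UMIs or more. Tgfbr2, Tgfb1, Smad2, Ski and Skil were past 1.5-fold higher there, beside 19.6% of all genes, and Smad7 was past it lower, beside 12.6%, but the intervals of Tgfbr2 and Ski alone were clear of 0. Tgfb1, Smad2 and Skil rested on 4, 6 and 5 UMIs in WT.

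Genes listed as responding to TGF-β in lymphocytes were counted next. All 6 pathway lists were chosen with earlier results of these data known, so their counts are a description only. Of the 12 measured genes that TGF-β represses, 7 were past 1.5-fold higher in TG T cells and 0 were lower, beside 12.9% and 8.42% of all genes, with a median log2 ratio of 0.82 against 0.01 for all genes. Klrg1, an inhibitory receptor gene of effector cells, was at 250.4 and 21.5 CPM (3.54, 3.36 to 3.73), the granule protease gene Gzma at 4281 and 423.2 CPM (3.34, 3.30 to 3.38), and the T cell growth factor gene Il2 at 17.4 and 6.46 CPM (1.43, 1.04 to 1.83). Tbx21, Eomes, Gzmb and Prf1 were the others, but Eomes was past 1.5-fold higher in 0 of the 4 T cell types with enough cells, Prf1 (0.81) in CD8αβ T cells alone, and Tbx21 and Gzmb in CD8αβ and CD4 T cells alone. The lowest of the list were the cytokine gene Ifng (181.8 and 233.7 CPM, -0.36, -0.45 to -0.28), Myc (-0.32) and Gata3 (-0.30). Within types Ifng was at 0.47 (0.28 to 0.67) in CD8αβ and 1.11 (0.75 to 1.46) in CD4 T cells but -0.43 (-0.58 to -0.29) in NKT cells, and Gata3 was at 0.92 (0.71 to 1.12) in CD4 T cells, while Myc was below 0 in all 4. The makeup of the T cells differed, with 1020 of 2131 TG and 819 of 4171 WT T cells named CD8αβ, and the list differed between the types. Of its 12 genes 7 were higher and 0 lower in CD8αβ T cells, beside 11.4% and 8.23% of all genes (median of the list 1.08), and 8 and 2 in CD4 T cells, beside 16.3% and 9.81% (1.04). In CD8αα T cells they were 3 and 0, beside 14.1% and 9.09% (0.12), and in NKT cells 3 and 0, beside 10.2% and 7.69% (-0.01). Gzma, Il2 and Klrg1 were higher in all 4. None of these was particular to T cells. Of 9 cell types with at least 50 cells in both genotypes, Gzma was past 1.5-fold higher in 8. Klrg1 was past it in all 7 types where it had at least 20 UMIs, and Il2 in 5 of 6, among them cells named NK. That minimum sums both genotypes and can be met through TG UMIs alone, so it favours types with a high ratio. In B cells the same list had 2 higher (Gzma and Klrg1) and 5 lower of 12, beside 6.22% and 7.57% of all genes. The lower ones were Eomes, Gata3, Prf1, Ifng and Il12rb2, genes of T and NK cells, and the 4 T cell markers summed to 271.2 in TG and 615.4 CPM in WT in mature B cells, with none at 0. The part of such transcripts in these ratios was not tested.

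The list of induced genes, on which Smad7, Ski and Skil were placed, had 11 measured genes. Of these 1 was past 1.5-fold higher in T cells and 4 were lower, beside 12.9% and 8.42% of all genes, with a median of -0.41. The lower ones were Itgae, Ahr (3.55 and 9.06 CPM, -1.35), Pmepa1 (9.79 and 20.9 CPM, -1.10) and Smad7, and the higher one was Tgfbi, with 39 and 25 UMIs. The highest of the list among genes with at least 100 UMIs were Cdkn1a (25.6 and 23.8 CPM), Foxp3 (24.6 and 23.6 CPM) and Ski. By type 2 were higher and 6 lower of 11 in CD8αβ T cells, beside 11.4% and 8.23% of all genes. The counts were 1 and 5 of 9 in CD4 T cells (16.3% and 9.81%), 0 and 2 of 6 in NKT cells (10.2% and 7.69%) and 0 and 0 of 4 in CD8αα T cells (14.1% and 9.09%). Foxp3 was past 1.5-fold higher in CD4 T cells and past it lower in CD8αβ T cells. The makeup of the CD4 T cells differed, since the Foxp3-rich cluster 21 was 48 of 238 TG and 65 of 734 WT cells. Within it Foxp3 was at 921.9 and 952.4 CPM in the library files, and the part of makeup in the CD4 T cell ratio was not tested. In B cells this list had 1 higher and 4 lower of 9, beside 6.22% and 7.57% of all genes.

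Itgae encodes CD103, the integrin chain that binds T cells to epithelium, and the antibody panel read its protein. In T cells Itgae was at 4.95 CPM in TG (46 UMIs) and 21.9 CPM in WT (278 UMIs), a log2 ratio of -2.15 (-2.63 to -1.69), while B cells, which should have little, held 1.53 and 4.12 CPM. Of the 119 UMIs in WT CD8αβ T cells, 96 were in cluster 4. That cluster was at 4.16 CPM in TG (3 UMIs) and 91.5 CPM in WT, a log2 ratio of -4.46 (-6.76 to -2.87). The protein differed in the same cells. The CD103 antibody had a median of 0.159 in TG cells of cluster 4 and 1.03 in WT cells, and made up 0.0769% and 0.766% of antibody counts. On B cells the medians were 0.301 and 0.329. In cluster 21 Itgae was at 15.4 CPM (3 UMIs) and 166.2 CPM (34 UMIs), with antibody medians of 0.19 and 0.566. The γδ T cells had antibody medians of 0.469 in 17 TG cells and 2.04 in 192 WT cells.

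Other cells had little Itgae or a smaller difference. CD4 T clusters 9 and 6 were at 16.8 and 17.5 CPM and at 5.73 and 2.00 CPM, and cluster 22, named macrophage but rich in the dendritic cell genes Xcr1 and Clec9a, at 70.7 and 127.5 CPM. In the TG library unnamed Cd8b1 T cells held 21.4 CPM of Itgae against 4.40 CPM in named ones (-2.28, -3.18 to -1.49). In the WT library the unnamed held 8.13 CPM against 45.3 CPM, so the WT cells were the highest of the 4.

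**Figure D5:**
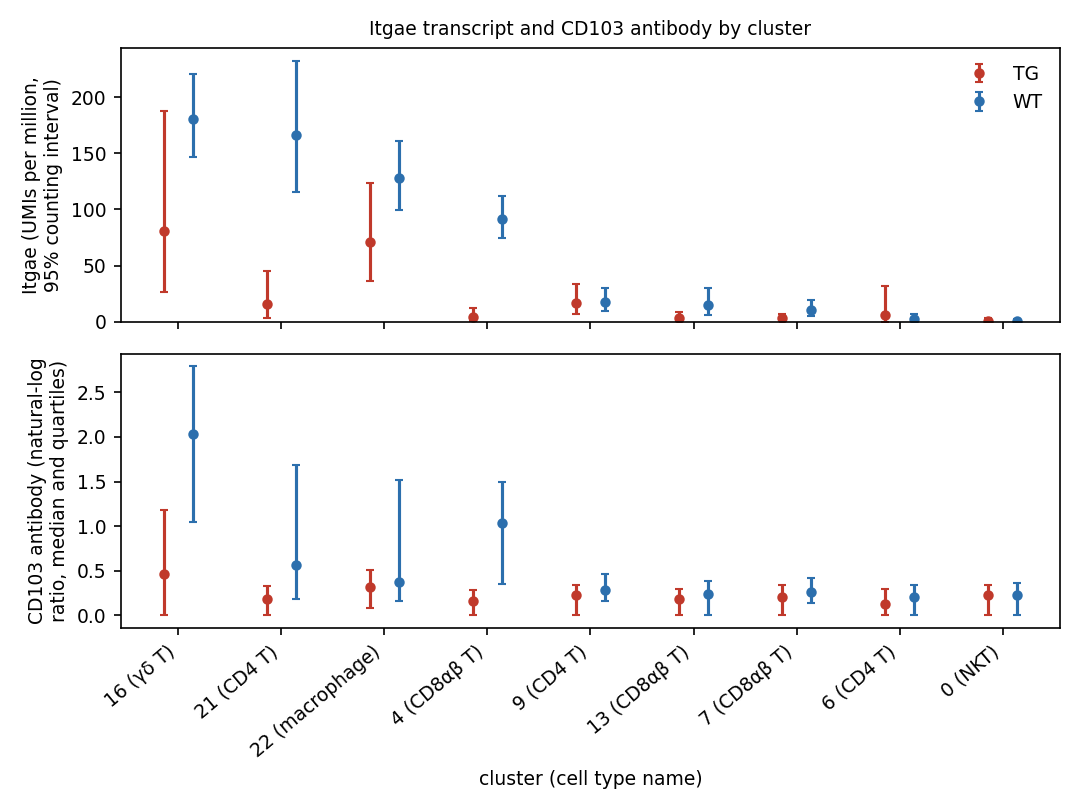
Itgae transcript in CPM with 95% counting intervals (top) and CD103 antibody as natural-log centred ratio, median with quartiles (bottom), by cluster (x axis) in TG (red) and WT (blue). In clusters 16, 21 and 4 the WT medians of the antibody are 2.04, 0.566 and 1.03 and those of TG 0.469, 0.190 and 0.159.

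Other parts of the pathway were counted in the same way. Of 25 measured mediators and regulators 0 were past 1.5-fold higher in T cells and 1 was lower (beside 12.9% and 8.42% of all genes), the co-repressor gene Tgif1 (35.2 and 59.0 CPM, -0.75, -0.94 to -0.56), with a median of -0.16. Next lowest were Tgif2 (-0.54) and the ubiquitin ligase gene Wwp1 (-0.51), and highest Hipk2 (0.34), Pias4 (0.31) and Stub1 (0.28). Of 8 other receptors of the family, beside the same shares of all genes, 0 were higher and 5 were lower, with a median of -0.78, though 4 of the 5 had under 100 UMIs. The one with more was the pseudoreceptor gene Bambi (2.58 and 6.62 CPM, -1.36, -2.08 to -0.69). The activin receptors Acvr1b (15.3 and 21.3 CPM, -0.48) and Acvr2a (-0.32) and the co-receptor Nrp1 (21.5 and 18.0 CPM, 0.26) were within 1.5-fold. Of 3 other ligands 1 was higher and 0 were lower, beside the same shares of all genes. The higher one was Gdf11 (53.9 and 28.9 CPM, 0.90, 0.70 to 1.10), and Bmp7 was at 21.3 and 25.6 CPM (-0.27).

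Among 9 measured genes that store or release latent TGF-β, 3 were higher in TG T cells and 1 was lower, beside 12.9% and 8.42% of all genes, with a median of 0.35. The integrin chain gene Itgb1 was at 721.2 and 386.0 CPM (0.90, 0.85 to 0.96) and Itgb3 at 39.2 and 76.1 CPM (-0.95, -1.13 to -0.78). Furin, the convertase that cleaves the TGF-β1 precursor, was at 86.0 and 62.5 CPM (0.46, 0.32 to 0.60), Itgav at 30.2 and 23.7 CPM (0.35), Nrros at 84.7 and 78.2 CPM (0.12) and Mmp9 at 77.3 and 104.6 CPM (-0.44). The other higher ones, Ltbp4 and Lrrc32, are listed at 0 in WT in the filtered table. The library files hold 10 and 6 UMIs there, so no fold is given from that table. Both met the minimum of 20 UMIs through TG alone, so Itgb1 is the only higher gene counted in both genotypes. Lrrc32 encodes GARP, which holds latent TGF-β1 on regulatory T cells. In the library files it was at 1.73 CPM in all TG cells (1.18 to 2.44) and 0.270 CPM in all WT cells (0.0990 to 0.587). It had 26 UMIs in the 48 TG cells of the Foxp3-rich cluster 21, or 133.2 CPM (87.0 to 195.1), and 2 UMIs in its 65 WT cells, or 9.77 CPM (1.18 to 35.3), intervals that do not overlap.

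The genes whose levels followed each of the 10 most closely were sought over 21 profiles (cell type by genotype, at least 50 cells) among 7952 genes. The profiles share 2 libraries, so r is a description. The closest to Tgfbr2 were Zdhhc20 and Sash3 (r = 0.89 for both) and to Smad3 D16Ertd472e (0.94) and Gm14029 (0.93). For the other receptors they were Fuca2 (0.84) and Mef2a (0.82) with Tgfbr1, and Igfbp4 (0.80) and Map4k4 (0.71) with Tgfbr3, and for the ligand Tgfb1 they were Zfp263 (0.76) and Map3k8 (0.74). Smad2 was followed by Bax and Arl5a (0.88 for both), and Smad4 by Tnfaip3 (0.83) and D830025C05Rik (0.79). For the inhibitors they were Yy1 and Ccnt1 (0.85 for both) with Smad7, Faah (0.90) and Csnk1g1 (0.86) with Ski, and Parp8 (0.87) and Pcnx (0.77) with Skil. None of these is another of the 10.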

How the data were processed

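CD45+ liver cells of 2 captures, each a pool of 2 genotypes, were analysed. Per the file headers and methods, the authors aligned reads to mm10 with STAR in the BD Rhapsody pipeline, and the deposited UMI counts per gene, antibody and cell had been corrected by that pipeline. Cells and genes were then filtered by the authors by rules not given in the sources used here, and their genotype, cell type and cluster names were used as given. The antibody values that the authors deposited are centred log ratios per cell (natural log). The normalised RNA table was not used.

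UMIs were summed per genotype and cell type or cluster and scaled to 1000000 (CPM). Intervals (95%) were exact Poisson for levels, conditional binomial for ratios and Clopper-Pearson for shares. Ratios needed 50 cells in each genotype and 20 UMIs in all. No test was possible with 1 library per genotype. A gene past 1.5-fold was counted as higher or lower. T cells were all cells named T or NKT. The 10 genes, the 6 pathway lists and the marker lists were chosen with earlier results of these data known. Of each pathway list up to 3 genes with the highest and 3 with the lowest T cell ratio were named, among those with at least 100 UMIs, with Itgae, Cd4 and Lrrc32 always, and for each of the 10 genes the 2 with the highest Pearson r of log2 (CPM + 10) among genes with at least 500 UMIs. In the gates on library files T cells had under 2 UMIs of Cd79a, Cd79b and Ms4a1, and B cells at least 2 of these and 0 of the CD3 genes. No doublet caller was run here, and cells with genes of both lineages were left out in an alternative. Other alternatives were TMM factors, totals without ribosomal or mitochondrial transcripts, the same weight for every cell, cell type or cluster, thinning to 1000 UMIs, the library files, no minimum count and 2-fold. Of the genes of the filtered table, 485 and 483 had no match by name in the TG and WT library files. The ratio script was tested on simulated counts with known changes. Versions were Python 3.11.15, numpy 2.4.6, scipy 1.17.1, pandas 2.3.3, R 4.3.3 and, for TMM, edgeR 4.0.16. Receptor repertoires and sorted cells of the study were not analysed here. A gene of the list of induced genes and a B cell marker are not reported here, and both were left out of the lists, gates and counts.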

Additional observations from a re-analysis of the deposited data

How the results depend on the processing

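No paired analysis was possible because each genotype had 1 library and no replicate number to pair, and for the same reason no replicate could be left out. Of 126 recomputed values 111 stayed within counting error or within 1.5 times of a count, 15 moved, and no ratio past 1.5-fold changed its sign. The Tgfbr2 ratio in B cells was -0.28 without cells holding genes of both lineages. The count of the 10 genes lower in T cells was 1 with equal weight per cell type and 1 at 2-fold, and the pathway count of lower genes was 20 with no minimum count, against 10. With equal weight per cluster, an alternative added after seeing the data, the Tgfbr2 ratio in T cells was 0.90, and 2 of the 10 genes were higher and 0 lower. Tgfb1 was then at 0.64, Smad3 at 0.50, Smad7 at -0.53, Ski at 0.12 and Tgfbr3 at -0.26, and with equal weight per cell type Tgfbr3 was at -0.22 and Ski at 0.08. Ski, at -0.06 in the report (-0.18 to 0.06), thus changed its sign, to values above that interval. Skil was at -0.29 after thinning. The cause of these moves was not tested. No share of all genes is given for these alternatives, so their counts are not set beside one. TMM differed from totals by 0.02 in T cells and -0.04 in B cells on the log2 scale. Depth limits Tgfbr3 and Itgae, which rest on few UMIs in TG, and the single capture per genotype limits every ratio.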
